A study of Danio rerio with 2 samples.

Results

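The proteasome is the barrel-shaped protease that destroys ubiquitin-tagged proteins in the cytosol and nucleus of every cell. Its core is built of outer alpha rings, which form the gate, and inner beta rings, which hold the cutting sites. A cap recognises the ubiquitin tag, removes it and threads the unfolded substrate into the core by means of a ring of ATPases. Immune subunits can replace the catalytic ones, other caps can replace the ubiquitin-dependent cap, and dedicated chaperones put the particle together. The genes described here are those whose symbols begin with psma, psmb, psmc, psmd, psme, psmf or psmg in either letter case. This rule found 59 loci among 40114 in the deposited table, and 52 of them averaged 1 FPKM or more over both libraries. Both counts include psmc3ip, which encodes no proteasome subunit, and a locus that joins psma6l with MAP7. FPKM is a level scaled by transcript length and library size.

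The study sequenced RNA from lri12 homozygous mutant zebrafish larvae and from their wild-type clutch-mates, all at 5 days post-fertilization. Each genotype was 1 library made from the whole bodies of 20 pooled larvae, so no value below has a replicate error and no test was run. Which gene carries the lri12 mutation is not stated in the labels, and 1 title spells the line lir12. In tissue as mixed as a whole larva, fewer cells of a type and less RNA per cell cannot be told apart. Absolute depth is unknown, because the files give no counts. Among 2396 loci with a mean under 0.2 FPKM, the log2 ratio of the mutant to the wild-type value was most often -0.15, held by 268 loci within 0.01. If equal read numbers lie behind that ratio, the mutant library had 1.11 reads per read of the wild-type library. Markers of muscle, neurons, eye, liver, gut, pancreas, skin, cartilage, blood and kidney were found in both libraries. Of the 18 such marker genes matched, only the heart gene myh6 had a mean under 1 FPKM. Of the other 17, 8 reached 1.1-fold lower in the mutant, against 17.6% of all 18664 genes that averaged 1 FPKM or more. Another 2 of the 17 reached 1.1-fold higher, against 17.1% of all genes. The lowest were the liver gene fabp10a, with 363 FPKM in the mutant and 811 FPKM in wild type, and the pancreatic trypsin gene try, with 1072 FPKM in the mutant and 2210 FPKM in wild type. The highest were the skin keratin gene krt4, with 5608 FPKM in the mutant and 4384 FPKM in wild type, and the fast muscle gene mylz2, with 5943 FPKM in the mutant and 5295 FPKM in wild type. The differences of these 4 were larger in size than those of most proteasome genes, and the part of tissue makeup in the values below was not tested.

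Proteasome genes stood slightly higher in the mutant library, by differences that were small for every subunit. On the scale log2((mutant FPKM + 1)/(wild-type FPKM + 1)), which is the scale of every log2 difference below, 42 of the 52 genes lay above 0 and 10 below. Among all 18664 genes that passed the same limit, 51.3% lay above 0. The median difference was 0.10 for the proteasome genes and 0.0044 for all genes. Of the 52, 16 reached 1.1-fold higher in the mutant, against 17.1% of all genes, and 2 reached 1.1-fold lower, against 17.6%. None of the 52 differed by 2-fold in either direction, against 0.729% of all genes, of which 0.289% were 2-fold higher and 0.439% lower. The highest member, psmd8, lay at 0.23, and 7.31% of all genes lay higher still. Added over all 59 loci, proteasome RNA came to 2650 FPKM in the mutant and 2477 FPKM in wild type, a sum 6.98% higher. As a share of the summed FPKM of all genes with a symbol, this was 0.346% in the mutant and 0.319% in wild type. As a share of the sum over all loci, with or without a symbol, it was 0.287% in the mutant and 0.277% in wild type.

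The mild upward difference was also seen when only the abundant genes among the 52 were counted. This limit was chosen after the values were seen. As part of the 52, the genes over it give no separate support. Of 40 proteasome genes averaging 20 FPKM or more, 33 lay above 0, against 55.2% of 3615 such genes overall. Of the 40, 13 reached 1.1-fold higher, against 18.2%, and 1 reached 1.1-fold lower, against 17.3%. In the authors' deposited table, 56 of the 59 loci were tested and 3 were too low to test. The lowest p in the authors' deposited table among the 52 was 0.35, for psmd8, and none of the 56 tested had a p under 0.05, against 2.59% of all tested loci. The authors' deposited table gives every tested proteasome locus the q-value 0.999, with q-values under 0.05 at 0.348% of all tested loci. Those p-values and q-values come from 1 library against 1 and hold nothing on the spread between clutches.

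**Figure D1:**
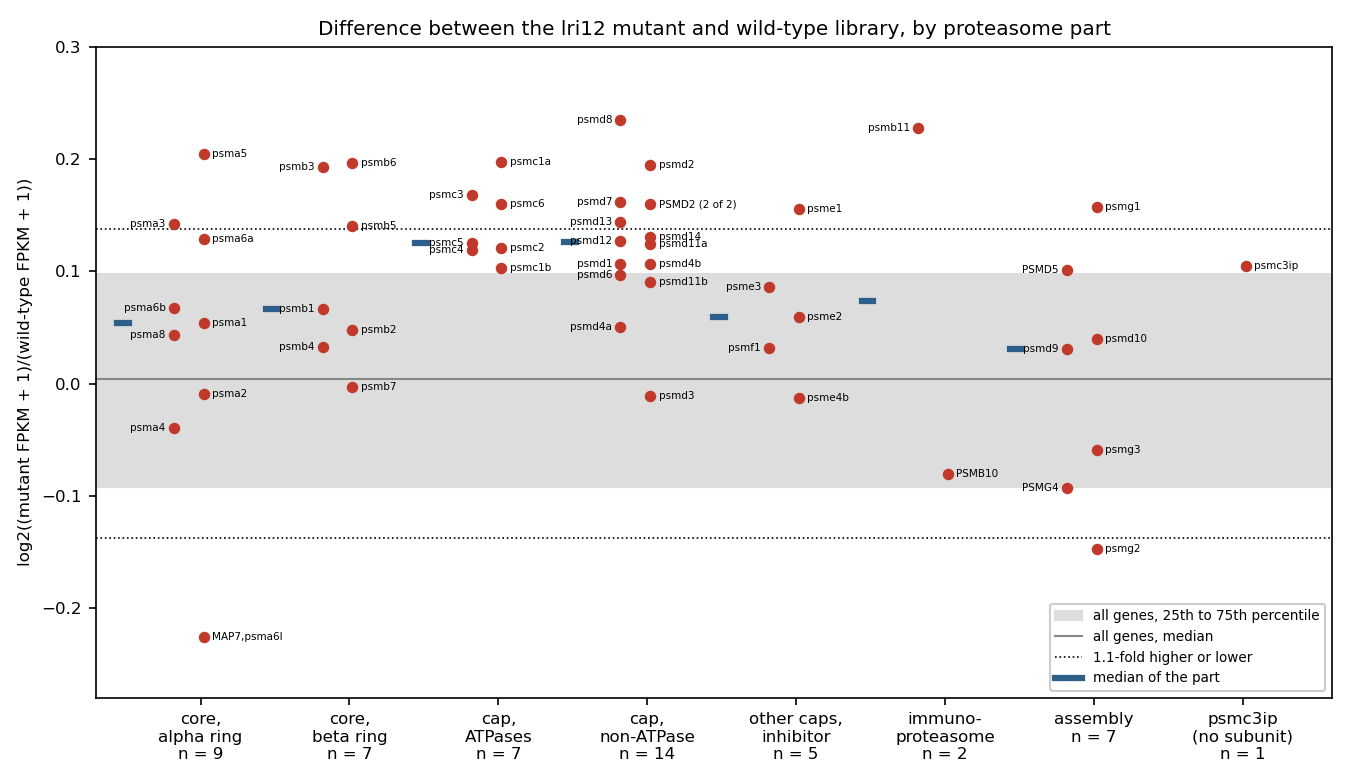
Each point is 1 of the 52 genes, placed by its log2 difference between the mutant and the wild-type library (vertical axis). The horizontal axis gives the part of the proteasome, with psmc3ip, which encodes no subunit, in a column of its own. Blue bars mark the median of each part. The 7 cap ATPases lie between 0.10 and 0.20, above the middle 50% of all genes (grey band), while psmg2, psmg3 and PSMG4 lie below 0.

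The cap showed the most even difference. All 7 ATPase genes and 13 of the 14 genes for non-ATPase subunits stood higher in the mutant, with medians of 0.13 in both groups. Above 0 lay 51.3% of all genes over the limit of 1 FPKM and 55.2% of those averaging 20 FPKM or more. Added together, the 21 cap genes came to 1079 FPKM in the mutant and 982 FPKM in wild type, a sum 9.92% higher. The 16 core genes came to 1364 FPKM in the mutant and 1289 FPKM in wild type, a sum 5.78% higher, and 12 of them lay above 0. These 16 include the locus that joins psma6l with MAP7, which lay at -0.23 and lowers the core sum ratio. The median was 0.05 for the alpha ring and 0.07 for the constitutive beta ring. Whether cap and core differed could not be tested with 1 library per genotype.

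The ATPases form the ring that unfolds substrates and opens the gate of the core. They differed within the narrow range of 0.10 to 0.20. The gene psmc1a (chromosome 17, 8741934 to 8786913 in the genome build Zv9) had 41.1 FPKM in the mutant and 35.7 FPKM in wild type, at 0.20 the highest of the ring. Its copy psmc1b (chromosome 20, 16762397 to 16781421) had 31.5 FPKM in the mutant and 29.3 FPKM in wild type, at 0.10 the lowest. The 2 copies therefore mark both ends of the range for the whole ring. The gene psmc2 had 74.5 FPKM in the mutant and 68.4 FPKM in wild type. The gene psmc3 had 53.6 FPKM in the mutant and 47.6 FPKM in wild type. The gene psmc4 had 65.9 FPKM in the mutant and 60.6 FPKM in wild type. Each of these stood above its wild-type level, with psmc3 at 0.17 the furthest of the 3. The gene psmc5 had 70.0 FPKM in the mutant and 64.1 FPKM in wild type. The gene psmc6 had 67.5 FPKM in the mutant and 60.3 FPKM in wild type.

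The non-ATPase subunits of the cap bind ubiquitin chains, cut them off and form the lid. The lid gene psmd8 (chromosome 18, 43032246 to 43040330) had 95.6 FPKM in the mutant and 81.1 FPKM in wild type. It was the most abundant gene of the cap and, at 0.23, the furthest above 0. The scaffold gene psmd2, whose product docks substrate shuttles, had 40.2 FPKM in the mutant and 35.0 FPKM in wild type. A second locus on chromosome 15, listed as PSMD2 (2 of 2), had 32.7 FPKM in the mutant and 29.2 FPKM in wild type. It ends 101 kb before psmd2 begins, and a RefSeq gene table of the assembly GRCz12tu, used here only for names and neighbours, lists only psmd2 under this name on that chromosome. Whether these loci are 1 gene was not tested, and both stood higher, at 0.20 and 0.16.

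The lid's deubiquitinase psmd14 had 60.3 FPKM in the mutant and 55.0 FPKM in wild type. Its structural partner psmd7, placed on an unassigned scaffold in Zv9, had 52.8 FPKM in the mutant and 47.0 FPKM in wild type. These partners lay at 0.13 and 0.16. Among the other lid genes, psmd6 had 74.8 FPKM in the mutant and 69.9 FPKM in wild type. The lid gene psmd12 had 52.8 FPKM in the mutant and 48.2 FPKM in wild type. The lid gene psmd13 had 64.9 FPKM in the mutant and 58.7 FPKM in wild type. All 3 lay between 0.10 and 0.14. The lid gene psmd3 had 49.4 FPKM in the mutant and 49.8 FPKM in wild type. It was the only cap gene below 0, at -0.01.

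The scaffold gene psmd1 had 33.8 FPKM in the mutant and 31.3 FPKM in wild type, the lowest level of the cap genes with 1 copy. The ubiquitin receptor gene psmd4a had 39.7 FPKM in the mutant and 38.3 FPKM in wild type. Its copy psmd4b had 31.3 FPKM in the mutant and 29.0 FPKM in wild type. The receptor copies lay at 0.05 and 0.11, and the first was the lowest of the cap genes above 0. The lid gene psmd11a had 22.3 FPKM in the mutant and 20.3 FPKM in wild type. Its copy psmd11b had 24.6 FPKM in the mutant and 23.0 FPKM in wild type. Both copies were higher, at 0.12 and 0.09.

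**Figure D2:**
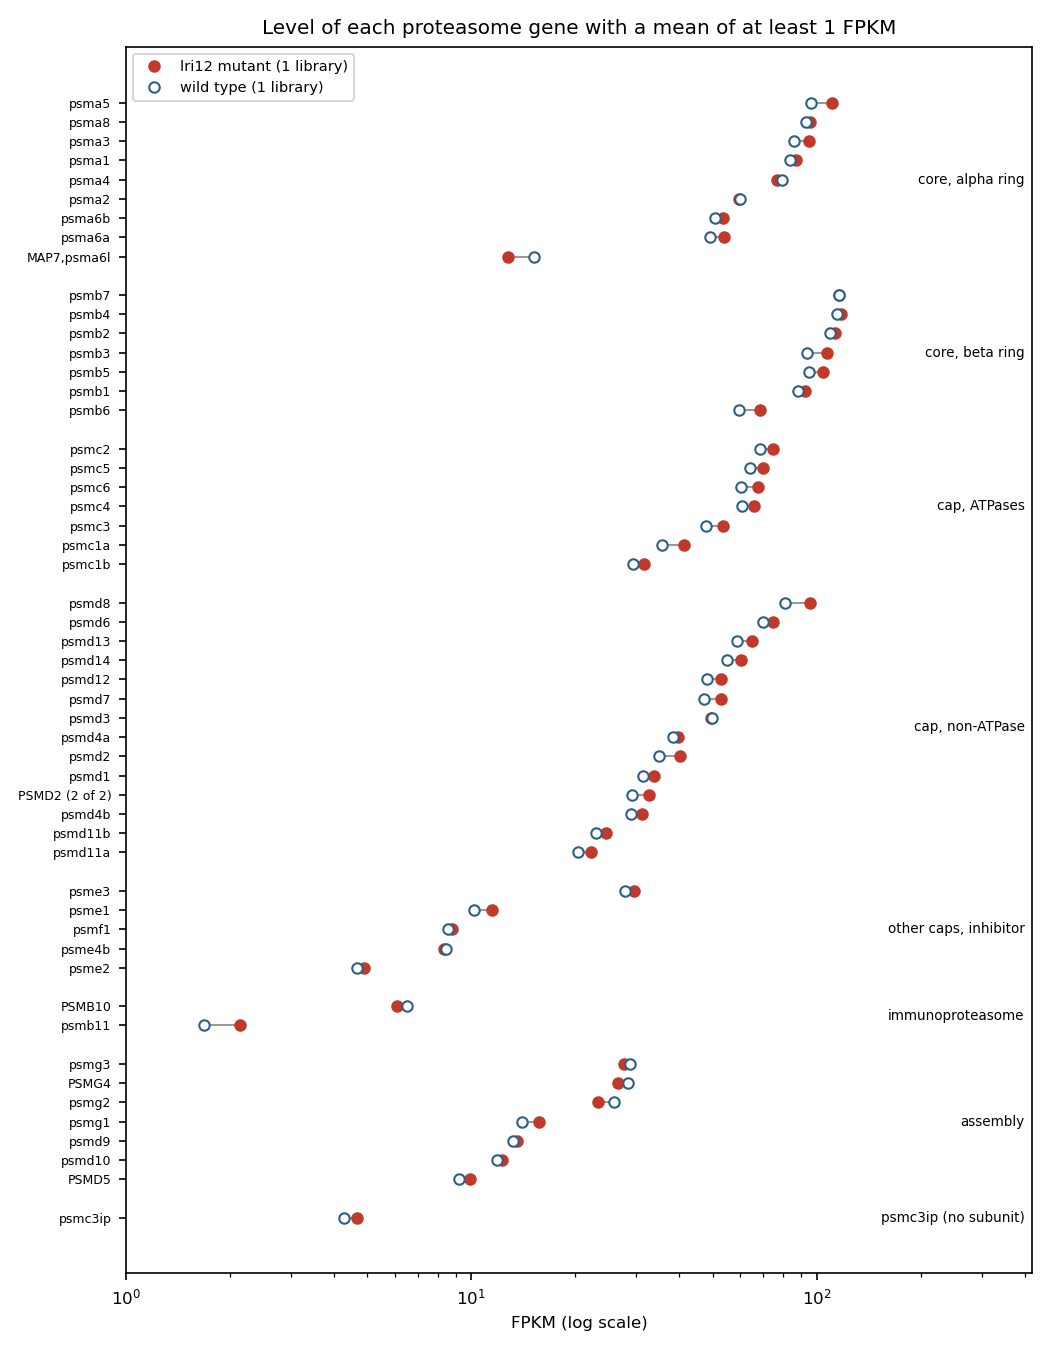
Each row is 1 of the 52 proteasome genes, ordered by level within each part, with its FPKM in the mutant library (filled red) and the wild-type library (open blue) on a log axis. The core genes other than the MAP7,psma6l locus lie between 49.1 and 117 FPKM, and psmb11 and PSMB10 of the immunoproteasome lie between 1.68 and 6.51 FPKM.

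The log2 differences of the core genes were more spread than those of the cap genes, with standard deviations of 0.11 and 0.05. The core value includes the joined MAP7,psma6l locus, which at -0.23 widens it. For the 7 beta genes, which do not include that locus, the standard deviation was 0.08. The beta ring carries the cutting sites, and its genes psmb6, psmb7 and psmb5 encode the caspase-like, trypsin-like and chymotrypsin-like subunits. The gene psmb6 (chromosome 23, 44652957 to 44666564) had 68.6 FPKM in the mutant and 59.7 FPKM in wild type, at 0.20 the highest of the ring. The gene psmb5 (chromosome 2, 38076030 to 38095333) had 104.5 FPKM in the mutant and 94.7 FPKM in wild type, at 0.14. The gene psmb7 (chromosome 21, 7841684 to 7852005) had 115.9 FPKM in the mutant and 116.2 FPKM in wild type, at -0.0035. The genes psmb6 and psmb7 thus mark both ends of the range of the ring, and psmb6 was the least abundant of the 7 beta genes in both libraries.

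The other beta genes encode subunits without a cutting site. The gene psmb3 had 106.9 FPKM in the mutant and 93.4 FPKM in wild type. The gene psmb1 had 92.5 FPKM in the mutant and 88.3 FPKM in wild type. The gene psmb2 had 112.7 FPKM in the mutant and 109.1 FPKM in wild type. Of these only psmb3 passed 1.1-fold, at 0.19. The gene psmb4 had 117.3 FPKM in the mutant and 114.7 FPKM in wild type, and it was the most abundant proteasome gene in the mutant, while psmb7 was the most abundant in wild type.

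In the alpha ring, psma5 (chromosome 11, 37183786 to 37191782) had 110.8 FPKM in the mutant and 96.0 FPKM in wild type. It was 1.15-fold higher, the furthest above 0 of the core genes. The gene psma3 had 94.7 FPKM in the mutant and 85.7 FPKM in wild type, at 0.14. The gene psma1 had 87.0 FPKM in the mutant and 83.8 FPKM in wild type. The gene psma8, for which the RefSeq table gives psma7 as a synonym, had 95.9 FPKM in the mutant and 93.0 FPKM in wild type. These last genes lay at 0.05 and 0.04, inside the middle 50% of all genes (-0.09 to 0.10). The copies psma6a and psma6b had 53.7 and 53.4 FPKM in the mutant, against 49.1 and 50.9 FPKM in wild type. They lay at 0.13 and 0.07. The gene psma2, which the RefSeq table calls psma2a, had 59.7 FPKM in the mutant and 60.1 FPKM in wild type. The gene psma4 had 76.9 FPKM in the mutant and 79.1 FPKM in wild type. Both lay below 0, at -0.01 and -0.04. A second copy, psma2b in the RefSeq table, is listed under the clone symbol si:rp71-45k5.4 and so escaped the rule, and is named here after its value was seen. It lies on chromosome 19 (36553505 to 36558603) and had 69.3 FPKM in the mutant and 64.6 FPKM in wild type, at 0.10. With it, the psma2 copies came to 129.0 FPKM in the mutant and 124.7 FPKM in wild type.

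The lowest of the 52 was the locus that joins psma6l with MAP7 (chromosome 15, 46727415 to 46906224), at 12.8 FPKM in the mutant and 15.1 FPKM in wild type. Its difference was -0.23. Because MAP7, a microtubule-binding protein gene, shares the locus, its value cannot be given to psma6l alone.

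RNA levels were also set side by side by position in the particle. Of 31 positions in the core and the cap, 5 had 2 loci whose symbols differ only in a copy mark. These were alpha1, PSMC1, PSMD2, PSMD4 and PSMD11. In the values by position, alpha2 is psma2 alone, without psma2b. Summed, psma6a and psma6b came to 107.1 FPKM in the mutant and 99.98 FPKM in wild type, beside a median over the 7 alpha positions of 94.7 FPKM in the mutant and 85.7 FPKM in wild type. The psmc1 copies came to 72.7 FPKM in the mutant and 65.0 FPKM in wild type, beside a median over the 6 ATPase positions of 68.8 FPKM in the mutant and 62.4 FPKM in wild type. Taken apart, the psmc1 copies were the lowest genes of the ring, and their sum lay among the other ATPases. The coefficient of variation of level over the ATPases was 28.04% in the mutant and 28.8% in wild type with copies apart. With copies summed it was 11.0% in the mutant and 11.8% in wild type. For the non-ATPase subunits it was 42.7% in the mutant and 40.7% in wild type with copies apart, and 27.5% in the mutant and 25.1% in wild type with copies summed. Summing was chosen after the values were seen, and how the authors' program assigned reads that match both copies is not known.

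The share of each copy was nearly the same in both libraries. The gene psma6a made up 50.2% of its pair in the mutant and 49.1% in wild type. The gene psmc1a made up 56.6% in the mutant and 55.0% in wild type. The gene psmd4a made up 55.9% in the mutant and 56.9% in wild type. Among the pairs found by the symbol rule, the largest shift was 1.65 percentage points, for psmc1a. The pair of psma2 and psma2b shifted more, with psma2 at 46.3% of it in the mutant and 48.2% in wild type. The gene psmd11a made up 47.6% in the mutant and 46.9% in wild type. The median level of the core positions was above that of the cap positions in both libraries, while single positions overlapped. The cap position PSMD8 stood above alpha3 and beta1 in both. It stood above alpha2 only without psma2b, as the psma2 copies together came to 129.0 FPKM in the mutant and 124.7 FPKM in wild type. The median beta position stood at 106.9 FPKM in the mutant and 94.7 FPKM in wild type, and the median non-ATPase position at 60.3 FPKM in the mutant and 55.0 FPKM in wild type.

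**Figure D3:**
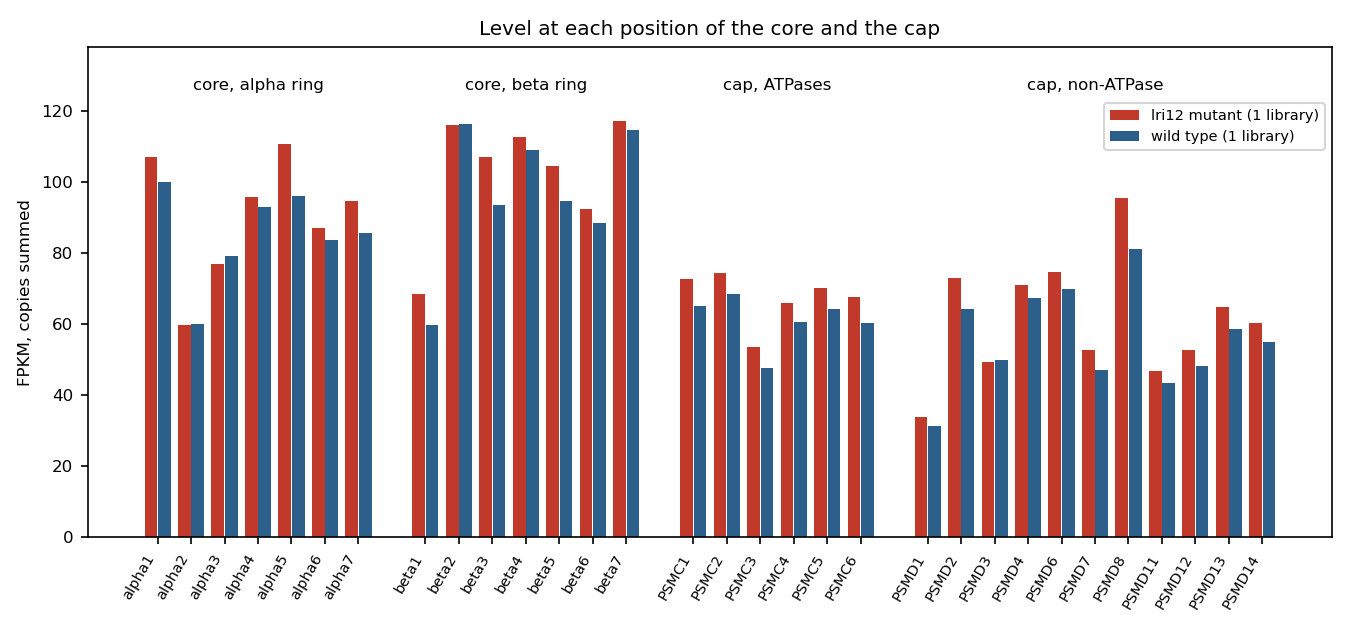
Bars give the FPKM in the mutant (red) and wild-type library (blue) for each position of the core rings and each subunit of the cap, with gene copies summed and without the joined MAP7,psma6l locus and the clone symbol for psma2b. In 27 of the 31 positions the red bar is the taller, the exceptions being alpha2, alpha3, beta2 and PSMD3. Higher in the mutant were 51.3% of all genes over the limit of 1 FPKM and 55.2% of those averaging 20 FPKM or more. The positions hold core and cap genes already counted and give no separate support. With psma2b added, alpha2 comes to 129.0 FPKM in the mutant and 124.7 FPKM in wild type.

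Immunoproteasome genes were far less abundant than the constitutive beta genes, and 4 of their 6 loci averaged under 1 FPKM. These subunits take the place of the catalytic beta subunits in leukocytes and after interferon, and change which peptides are cut for antigen presentation. The gene listed as PSMB10 on chromosome 4 (61218181 to 61229116), called psmb10 in the RefSeq table with the synonym beta2i, had 6.10 FPKM in the mutant and 6.51 FPKM in wild type. This was 5.26% of the level of its constitutive counterpart psmb7 in the mutant and 5.60% in wild type. The entries psmb11, psmb9a and psmb10,psmb8 share 1 locus on chromosome 19 (7728374 to 7767121). There psmb11, an older symbol of the gene now called psmb12 in the RefSeq table, had 2.14 FPKM in the mutant and 1.68 FPKM in wild type. Its log2 difference was 0.23 with a pseudocount of 1, second among all 52, and 0.10 with a pseudocount of 5. With a pseudocount of 0.1 it was 0.33, above psmd8 at 0.24. The gene psmb9a, whose product replaces that of psmb6, had 0.463 FPKM in the mutant and 0.492 FPKM in wild type. The joined entry psmb10,psmb8, which the RefSeq table calls psmb13a and psmb8a, had 0.451 FPKM in the mutant and 0.630 FPKM in wild type. Reads may have been divided among these overlapping entries. Against the level of psmb5, the joined entry stood at 0.431% in the mutant and 0.665% in wild type. In the RefSeq table psmb8a has the synonym beta5ia and psmb13a the synonym beta2ta. The joined value is therefore not a ratio of psmb8a alone to psmb5. The name PSMB11 belongs in mammals to the form of the thymus. Of the loci listed as PSMB11 (1 of 2) and PSMB11 (2 of 2), the first was listed at 0.0182 FPKM in the mutant and at 0 in wild type, and the second at 0 in both.

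Leukocyte markers were examined beside these values. Of 22 matched markers, 12 had a mean of at least 1 FPKM, and 11 of those 12 lay below 0, with a median of -0.06. Of the 12, 3 were at least 1.1-fold lower. Among all genes over the same limit, 51.3% lay above 0 and 17.6% were at least 1.1-fold lower. The summed level of all 22 was 117 FPKM in the mutant and 134 FPKM in wild type. The lysozyme gene lyz, named after its value was seen, made up most of this sum, with 72.4 FPKM in the mutant and 86.7 FPKM in wild type. Without it the sum was 44.8 FPKM in the mutant and 47.6 FPKM in wild type. The lymphocyte recombinase gene rag1, the lowest, had 1.33 FPKM in the mutant and 2.08 FPKM in wild type. Next lowest was spi1, a myeloid transcription factor gene, with 2.69 FPKM in the mutant and 3.72 FPKM in wild type. The highest were the cytokine receptor chain gene il2rga, with 1.92 FPKM in the mutant and 1.70 FPKM in wild type, and the macrophage marker mfap4, with 3.24 FPKM in the mutant and 3.27 FPKM in wild type. None of the 22 was at 0 in both libraries. The part of leukocyte number in the immunoproteasome values was not tested.

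Genes of antigen processing and interferon response had no common direction. Of 37 list entries 19 were matched, and 10 of these were over the limit. Of the 10, 6 lay above 0 and 4 below, against 51.3% of all genes above 0. Of the 10, 3 reached 1.1-fold higher, against 17.1%, and 3 reached 1.1-fold lower, against 17.6%. The antiviral gene mxc, the highest, had 2.60 FPKM in the mutant and 1.44 FPKM in wild type. The ubiquitin-like modifier gene isg15, also among the 3 higher, had 1.29 FPKM in the mutant and 0.834 FPKM in wild type. It passed the limit only through its mutant value, so its direction was partly set by the limit. The lowest were zgc:136614, which the RefSeq table calls mhc1zca, with 2.88 FPKM in the mutant and 4.01 FPKM in wild type, and zgc:64115, called mhc1zba, with 31.6 FPKM in the mutant and 36.2 FPKM in wild type.

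The genes of the alternative caps stood below those of the ubiquitin-dependent cap, except that psme3 stood above psmd11a and psmd11b. The nuclear activator psme3 had 29.6 FPKM in the mutant and 27.8 FPKM in wild type. The partners psme1 and psme2 form the activator that interferon induces in mammals. The gene psme1 had 11.4 FPKM in the mutant and 10.2 FPKM in wild type, at 0.16. The gene psme2 had 4.89 FPKM in the mutant and 4.65 FPKM in wild type, at 0.06. The level of psme2 was 42.8% of that of psme1 in the mutant and 45.8% in wild type. The nuclear cap gene psme4b had 8.34 FPKM in the mutant and 8.43 FPKM in wild type, the only one of the 5 entering genes in this group below 0. Its copy psme4a had 0.361 FPKM in the mutant and 0.525 FPKM in wild type, and its p of 0.108 in the authors' deposited table was the lowest of all tested proteasome loci. The nearby locus PSME4 (3 of 4) had 0.650 FPKM in the mutant and 0.532 FPKM in wild type, and PSME4 (2 of 4) was listed at 0 in both. The inhibitor gene psmf1 had 8.77 FPKM in the mutant and 8.55 FPKM in wild type.

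Of 7 assembly genes 4 lay above 0, near the 51.3% of all genes that did, with a median of 0.03. The 3 below 0 were psmg2, psmg3 and PSMG4. The products of psmg1 and psmg2 work as a pair on the alpha ring. The gene psmg1 (chromosome 10, 272101 to 275808) had 15.7 FPKM in the mutant and 14.0 FPKM in wild type, 1.11-fold higher. The gene psmg2 (chromosome 19, 12972193 to 12982247) had 23.2 FPKM in the mutant and 25.8 FPKM in wild type. At -0.15 it was the second lowest of the 52. Among these it was the only gene from a locus with 1 symbol to lie at least 1.1-fold lower. The partners psmg1 and psmg2 thus lay on opposite sides of 0. The gene psmg3 had 27.7 FPKM in the mutant and 28.9 FPKM in wild type. The gene listed as PSMG4 had 26.6 FPKM in the mutant and 28.4 FPKM in wild type. This second pair lay at -0.06 and -0.09. The median of the 4 psmg genes was -0.08.

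The chaperones of the cap base, PSMD5, psmd9 and psmd10, hold ATPase subunits during assembly. All 3 lay above 0, against 51.3% of all genes, with a median of 0.04. The gene listed as PSMD5 had 9.93 FPKM in the mutant and 9.19 FPKM in wild type. The gene psmd9 had 13.5 FPKM in the mutant and 13.2 FPKM in wild type. The gene psmd10, known as gankyrin, had 12.2 FPKM in the mutant and 11.9 FPKM in wild type. These differences were at most 0.10. The prefix psmc also found psmc3ip, a recombination factor gene that encodes no proteasome subunit, with 4.67 FPKM in the mutant and 4.27 FPKM in wild type. It was kept out of the ATPases.

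Partners of the proteasome that lack the prefix were mixed. Of 15 such genes 10 lay above 0, against 51.3% of all genes, with a median of 0.04. Of the 15, 4 reached 1.1-fold higher, against 17.1%, and 1 reached 1.1-fold lower, against 17.6%. The highest were zfand5a, whose product stimulates the proteasome in mammals, with 74.6 FPKM in the mutant and 65.4 FPKM in wild type, and the deubiquitinase usp14, with 22.8 FPKM in the mutant and 20.1 FPKM in wild type. The lowest were zfand2a, with 11.3 FPKM in the mutant and 12.9 FPKM in wild type, and fbxo7, whose product binds the inhibitor encoded by PSMF1 in mammals, with 6.90 FPKM in the mutant and 7.65 FPKM in wild type. Also among the higher ones was POMP, the maturation factor of the beta ring, with 107.0 FPKM in the mutant and 96.6 FPKM in wild type. Its difference of 0.15 had the same sign as that of psmg1, at 0.16, and the opposite sign to those of psmg2, psmg3 and PSMG4. The ubiquitin receptor gene adrm1b had 44.0 FPKM in the mutant and 43.4 FPKM in wild type. The small lid gene shfm1 had 67.3 FPKM in the mutant and 65.5 FPKM in wild type. These cap subunits without the prefix lay at 0.02 and 0.04, and POMP, adrm1b and shfm1 are named after their values were seen.

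The NRF transcription factors, which drive proteasome genes in mammals when proteolysis is short, differed little. The list held 11 genes for these factors and for the proteins that pair with, release or hold them. Above 0 lay 6 of them, against 51.3% of all genes, and 5 lay below, with a median of 0.03. The highest were the protease gene ddi2, with 13.9 FPKM in the mutant and 12.8 FPKM in wild type, and nfe2l3, with 11.6 FPKM in the mutant and 10.8 FPKM in wild type. The lowest were keap1a, with 6.31 FPKM in the mutant and 7.47 FPKM in wild type, and mafk, with 6.13 FPKM in the mutant and 7.07 FPKM in wild type. Not 1 of the 11 reached 1.1-fold higher, against 17.1% of all genes, and 4 reached 1.1-fold lower, against 17.6%. These 4 were keap1a, mafk, mafg1 and mafg2, none of them an NRF gene. The NRF genes NFE2L1, nfe2l2 and nfe2l3 lay at 0.03, 0.09 and 0.09. Of these genes, mafg1, mafg2, NFE2L1 and nfe2l2 are named after their values were seen.

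Upstream of the proteasome, genes for ubiquitin and for the enzymes that activate and conjugate it or its relative SUMO lay mostly above 0. Of 40 genes 32 lay above 0, against 51.3% of all genes, with a median of 0.05. Of the 40, 10 reached 1.1-fold higher, against 17.1%, and none reached 1.1-fold lower, against 17.6%. The conjugating enzyme gene ube2k was the highest, with 24.3 FPKM in the mutant and 20.5 FPKM in wild type. The mitotic conjugating enzyme gene UBE2S came next, with 15.9 FPKM in the mutant and 13.5 FPKM in wild type. The lowest were UBE2J1, with 7.70 FPKM in the mutant and 8.32 FPKM in wild type, and ube2d4, with 5.33 FPKM in the mutant and 5.64 FPKM in wild type. Shuttle proteins and the segregase p97 with its cofactors had 9 of 20 genes above 0 and a median of -0.01. The p97 gene itself, vcp, was the highest of them, with 93.6 FPKM in the mutant and 83.6 FPKM in wild type, followed by derl2, with 18.5 FPKM in the mutant and 16.6 FPKM in wild type. The lowest were ubxn6, with 9.87 FPKM in the mutant and 11.7 FPKM in wild type, and the autophagy receptor sqstm1, with 43.7 FPKM in the mutant and 48.8 FPKM in wild type.

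Other large complexes were set beside the proteasome. The COP9 signalosome and the translation factor eIF3 are related in build to the lid of the proteasome. Of 9 signalosome genes, 4 lay above 0, with a median of -0.01, from cops3 and cops2 at -0.17 and -0.08 to cops4 and gps1, both at 0.04. Of 15 eIF3 genes, 2 lay above 0, against 51.3% of all genes, and 5 were at least 1.1-fold lower, against 17.6%. Their median was -0.10. They ranged from eif3s10 and eif3c, at -0.25 and -0.21, to eif3eb at 0.0035 and eif3jb at 0.14. All 8 genes of the cytosolic chaperonin, which folds actin and tubulin, lay below 0, with a median of -0.08, from cct4 and cct7 at -0.16 and -0.10 to cct3 and cct5 at -0.05 and -0.04. The medians of eIF3 and the chaperonin thus lay below 0, beside 0.12 for the 37 core and cap genes of the proteasome. With 1 library per genotype, none of these differences between complexes could be tested.

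**Figure D4:**
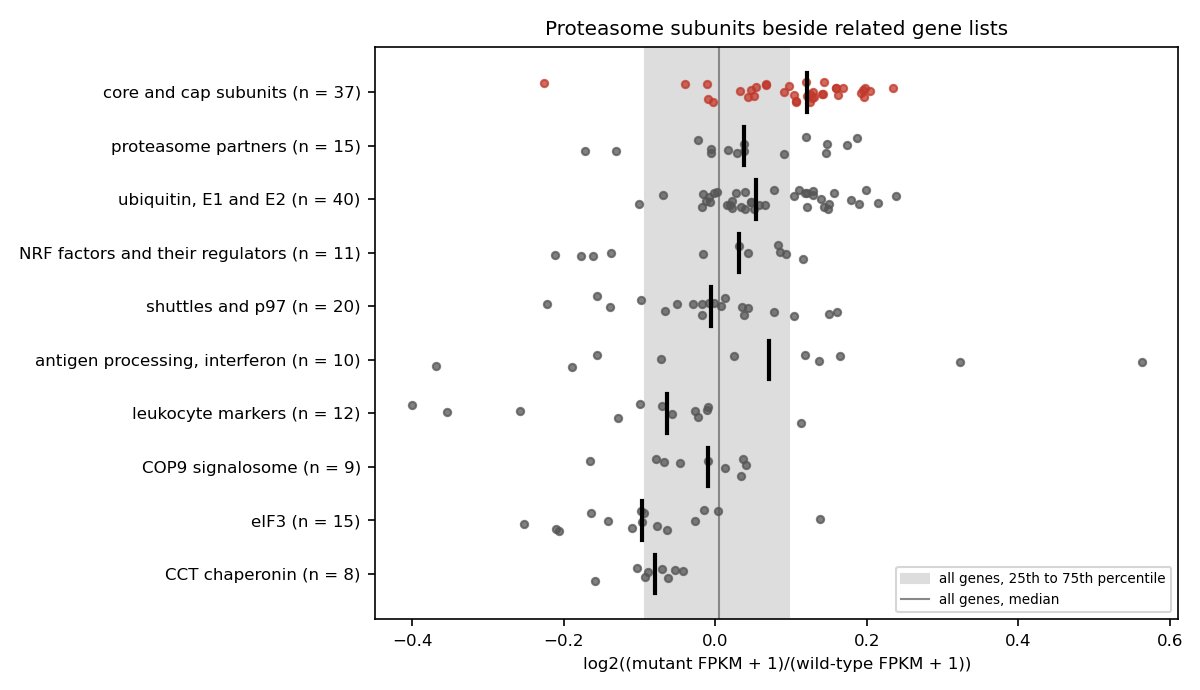
Each point is 1 gene over the limit of 1 FPKM, placed by its log2 difference between the mutant and the wild-type library, for the core and cap subunits (red) and 9 related lists (grey), with black bars for medians. The core and cap subunits have a median of 0.12, above the middle 50% of all genes (grey band), and all 8 chaperonin genes lie left of 0.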

How the data were processed

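RNA of 1 pool of 20 whole larvae per genotype was measured by sequencing. The authors deposited 1 table with the column names of a Cuffdiff comparison, per the file headers. Its 2 level columns were taken as FPKM, as that program writes them and as the authors deposited them, since no label states the unit. Its p-values and q-values were deposited by the authors and are quoted as theirs. CASAVA, Bowtie and the build Zv9 are named in the submitters' processing notes. Not given in the sources used here are the annotation, the strand and the handling of reads with several matches.

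Failed estimates (19 loci, no proteasome gene among them) and 8509 loci without a symbol were left out. Loci sharing a symbol were summed, giving 27458 symbols. The pseudocount was 1, the lower limit a mean of 1 FPKM, and the folds counted 1.1 and 2, with Python 3.11.15 and pandas 2.3.3. The arithmetic of the comparison was checked on simulated data with known folds and no noise, which says nothing on the spread between libraries. Members, lists, parts and the 1.1-fold limit were chosen with earlier results of these data known. The naming rule took all members over the limit and the 2 highest and 2 lowest genes of each list. The rule that put every psmc symbol among the ATPases was not applied to psmc3ip. List entries were matched by symbol, else through synonyms in gene name tables, and unmatched entries were not used. Starts in the deposited table count from 0, as 305 of 10298 loci had exactly the RefSeq gene length that way and 51 and 41 were 1 base off, so 1 was added.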

Additional observations from a re-analysis of the deposited data

How the results depend on the processing

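The median of the proteasome genes stayed between 0.09 and 0.11 under all alternatives, which were pseudocounts of 0.1 and 5, no lower limit, limits of 5 and 20 FPKM, recentring on the median of all genes, the highest locus of each symbol, only loci tested by the authors, no joined loci, lower-case symbols only and copies summed. The limit of 20 FPKM, the lower-case symbols and the summed copies were chosen after seeing the data, as was the count of psmc3ip among the ATPases. The median of the alpha ring stayed between 0.048 and 0.061 and that of the beta ring between 0.062 and 0.067. The median of the ATPases stayed between 0.118 and 0.142 and that of the non-ATPase subunits between 0.112 and 0.130. With a pseudocount of 5, 10 genes reached 1.1-fold higher in place of 16, and 1 reached 1.1-fold lower in place of 2, as a larger pseudocount shrinks differences by its construction. The count of lower genes was 4 with no lower limit and 1 with joined loci left out or with the limit of 20 FPKM. The immunoproteasome median rests on psmb11 and PSMB10 alone. It was 0.07 as reported, 0.022 with a pseudocount of 5, -0.014 with no lower limit, -0.081 from PSMB10 alone with the limit of 5 FPKM, and 0.23 from psmb11 alone with lower-case symbols. The assembly median was 0.03 as reported and -0.093 with the limit of 20 FPKM, where only psmg2, psmg3 and PSMG4 are left. The antigen processing list had a median of 0.07 as reported, -0.066 with the limit of 5 FPKM and -0.19 with that of 20 FPKM, where only zgc:64115 is left. With the limit of 20 FPKM the leukocyte list lay at -0.26, from lyz alone, and the partners of the proteasome at 0.12. Fewer genes enter under these limits. No paired analysis was possible because each genotype has 1 library. For the same reason no library could be left out, and no error stands beside any value.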

Other observations

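The proteasome genes were spread over the genome. In Zv9, 58 of the 59 loci lay on 21 chromosomes and 1 on a scaffold, with at most 8 on any chromosome, chromosome 19. On chromosome 20, psmc1b ends 148 kb before psma6b begins, and the copies psmc1a and psma6a of both genes lie on chromosome 17. In the neighbours psmc1b and psma6b the log2 differences were 0.10 and 0.07, and in psmc1a and psma6a they were 0.20 and 0.13. On chromosome 2, the locus listed as PSMB11 (1 of 2), nearly silent in both libraries, ends 1.55 kb before psmb5, which had 104.5 FPKM in the mutant and 94.7 FPKM in wild type.

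The 7 loci that did not reach a mean of 1 FPKM were psmb9a, the joined psmb10,psmb8 locus, both PSMB11 loci, psme4a, PSME4 (2 of 4) and PSME4 (3 of 4). They hold immune, thymus or alternative cap genes and no gene of the core rings or the ubiquitin-dependent cap.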
